A study of Mus musculus with 35 samples.

Results

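HOX genes encode the homeodomain transcription factors that give cells their position along the head-to-tail axis and along the limbs. They lie in 4 clusters, Hoxa, Hoxb, Hoxc and Hoxd, each numbered from the anterior genes at the 3′ end of the cluster to the posterior genes at the 5′ end, and genes with the same number in different clusters are paralogs. In the embryo the anterior genes are switched on earlier and nearer the head, and the posterior genes of Hoxa and Hoxd are used again in the limb buds and the genital tubercle. Fibroblasts are known to keep a HOX pattern of the body site they came from after they are put into culture. The HOX genes described here are all genes whose annotated symbol is Hoxa, Hoxb, Hoxc or Hoxd followed by a number, each read from its probe set with the highest mean. They number 33 of the 18194 genes that had a probe set of their symbol alone. HOX genes without a probe set of their symbol alone are not analysed here.

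Expression was measured on 35 Affymetrix arrays of primary mouse embryonic fibroblasts (MEFs) from C57BL6/J mice, with no genetic change in any group. Control cells were collected at 0, 1, 8, 24 and 72 h, and cells given methyl-methanesulfonate (MMS), an alkylating agent that methylates DNA, at 40 µg/mL in fresh medium were collected at 1, 8, 24 and 72 h. Each group had 4 arrays except MMS 72 h, which had 3. The labels give embryos of day 15.5 and 2 passages, while the study's methods give another embryonic day and passage number and state that head and fetal liver were removed. MEFs are a mixed outgrowth of the remaining embryo, and neither the number of embryos nor their sex was given. The methods state that experiments were done with 4 repeats but not that these were separate cultures, so p-values measure the spread between these arrays, whose number limits the precision. In such bulk samples, fewer cells of a type and less RNA per cell cannot be told apart. Values are log2 signals normalised by RMA, and levels of different probe sets were not compared.

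The arrays at 8 h stood apart from the rest in the whole series, and the 1st principal component of all genes tested held 44.5% of the variance. Fibroblast genes were present throughout, with 14 of 14 markers above the detection limit in every group. Of the 14, 9 were lower and 5 higher in control 8 h, and 9 lower and 4 higher in MMS 8 h (medians -0.38 and -0.67). Thy1 averaged 12.13 in control 8 h, 12.15 in MMS 8 h and 9.95 to 11.46 in the other groups. The collagen gene Col1a1 averaged 11.14 in control 8 h, 10.42 in MMS 8 h and 11.91 in MMS 24 h, and 13.72 to 14.03 in the other groups. On the 8 arrays of 8 h, the mean of 15 macrophage markers was 7.47 to 8.11, against 4.49 to 5.79 on the 27 others, and 14 of 14 markers tested were higher in both 8 h groups. Their defining gene Lyz2, a lysozyme, averaged 12.10 in control 8 h and 11.60 in MMS 8 h, and 5.71 to 6.81 in the other groups. Skeletal muscle markers averaged 5.30 to 5.45 on the 8 h arrays and 4.49 to 4.93 on the others, and cartilage markers 5.09 to 5.86 against 6.06 to 6.54. Neural and glial markers averaged 5.04 to 5.26 against 4.66 to 5.00, erythroid markers 4.18 to 4.55 against 3.85 to 4.15, and genes of tissues absent from fibroblasts 4.57 to 4.89 against 4.18 to 4.53. The 3 Y-linked genes averaged 4.47 to 5.52 against 3.67 to 5.09, the last value on an array of control 0 h. The 2 of them tested were called higher in both 8 h comparisons. Eif2s3y averaged 6.69 in control 8 h and 6.22 in MMS 8 h, and 4.46 to 4.88 in the other groups. The part of these differences in the HOX results below was not tested, and the 8 h time and any culture or array batch of those 8 arrays cannot be told apart.

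Promoter stretches of 4 genes are shown as examples of genes whose 8 h arrays all lay outside the range of the others: Hoxd10 and Hoxd13, limb and posterior body genes that were lower there, and Hoxb4 and Hoxc4, cervical-level genes that were higher. Each is the 250 bases before the annotated start, 5′ to 3′, from RefSeq on GRCm38.p6, where 19 of the 33 HOX genes had 21 such windows. Capitals mark matches, on either strand, to CCAAT (the NF-Y box), TATAAA (the TATA box) or TGATNNAT (the PBX and HOX pair site).
Hoxd10, chr2:74691641-74691890, strand +: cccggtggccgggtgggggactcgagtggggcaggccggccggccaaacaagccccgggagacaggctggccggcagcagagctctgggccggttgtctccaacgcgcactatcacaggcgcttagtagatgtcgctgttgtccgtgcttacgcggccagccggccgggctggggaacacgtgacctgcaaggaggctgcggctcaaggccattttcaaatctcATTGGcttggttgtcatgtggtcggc
Hoxd13, chr2:74667975-74668224, strand +: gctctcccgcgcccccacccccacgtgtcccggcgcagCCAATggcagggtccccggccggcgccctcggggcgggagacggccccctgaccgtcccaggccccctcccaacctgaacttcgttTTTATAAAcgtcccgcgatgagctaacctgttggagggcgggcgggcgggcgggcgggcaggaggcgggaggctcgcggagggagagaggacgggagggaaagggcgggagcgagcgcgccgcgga
Hoxb4, chr11:96318017-96318266, strand +: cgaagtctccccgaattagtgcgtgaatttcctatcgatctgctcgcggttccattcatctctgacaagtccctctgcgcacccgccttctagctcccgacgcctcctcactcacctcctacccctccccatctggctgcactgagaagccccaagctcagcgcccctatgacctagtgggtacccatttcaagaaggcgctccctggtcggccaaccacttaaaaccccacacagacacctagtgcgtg
Hoxc4, chr15:103034145-103034394, strand +: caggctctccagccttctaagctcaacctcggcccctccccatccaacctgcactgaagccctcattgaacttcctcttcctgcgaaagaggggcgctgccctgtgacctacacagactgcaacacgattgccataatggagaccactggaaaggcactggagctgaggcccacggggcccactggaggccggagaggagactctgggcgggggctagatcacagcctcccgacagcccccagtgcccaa
Hoxd10 held 1 CCAAT match, and Hoxd13 held 1 CCAAT match and 2 overlapping matches to TATAAA. No match to these motifs was found in the windows of Hoxb4 and Hoxc4. CCAAT was found in 11 of the 21 HOX windows and in 33.9% of all 32851 windows of that length, TATAAA in 2 and in 12.4%, and TGATNNAT in 3 and in 7.68%. The median G and C content was 59.2% in the HOX windows and 52.4% in all windows.

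A HOX gene was taken as detected in a group with a mean at or above log2 4.40, the 40th percentile over every probe set and array. This limit does not by itself separate expressed genes from background. Of 12 genes of tissues absent from fibroblasts, between 4 (control 24 h) and 7 (MMS 8 h) reached it in each group. Detected therefore means only a signal at or above the limit. By this limit 23 of the 33 genes were detected in all 9 groups, 3 in some and 7 in none. All 7 Hoxc genes were detected throughout: Hoxc4, Hoxc5, Hoxc6, Hoxc8, Hoxc9, Hoxc10 and Hoxc13, with group means from 4.88 for Hoxc13 to 8.22 for Hoxc8. In Hoxa, 6 of 9 were detected throughout, namely Hoxa3, Hoxa5, Hoxa7, Hoxa9, Hoxa10 and Hoxa11, with group means from 5.00 for Hoxa3 to 9.49 for Hoxa9. In Hoxb these were 6 of 9, namely Hoxb2 to Hoxb6 and Hoxb9, from 4.67 for Hoxb5 to 8.38 for Hoxb2. In Hoxd, 4 of 8 were detected throughout, Hoxd8, Hoxd9, Hoxd10 and Hoxd13, from 5.17 for Hoxd10 to 10.12 for Hoxd13.

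The 7 genes under the limit in every group were mostly anterior: Hoxa2, which patterns the second branchial arch, Hoxb1, which specifies a hindbrain segment, and Hoxa4, Hoxd1, Hoxd3, Hoxb7 and the tail gene Hoxb13. Their highest single array was 4.22, of Hoxa4, and no change was read for them. Of the 23 genes with paralog numbers 1 to 9, 17 were detected throughout and 6 in no group, and of the 10 numbered 10 to 13, 6 were detected throughout, 3 in some groups and 1 in none. The 3 detected in some groups were Hoxa13, Hoxd11 and Hoxd12. Each passed the limit in the same 7 groups and lay under it in control 8 h and MMS 8 h. A probe set shared by Hoxb8 and Hoxb7, which cannot be given to either, was 1.44 higher at 8 h in control cells and 0.70 higher in MMS cells on the log2 scale.

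**Figure D1:**
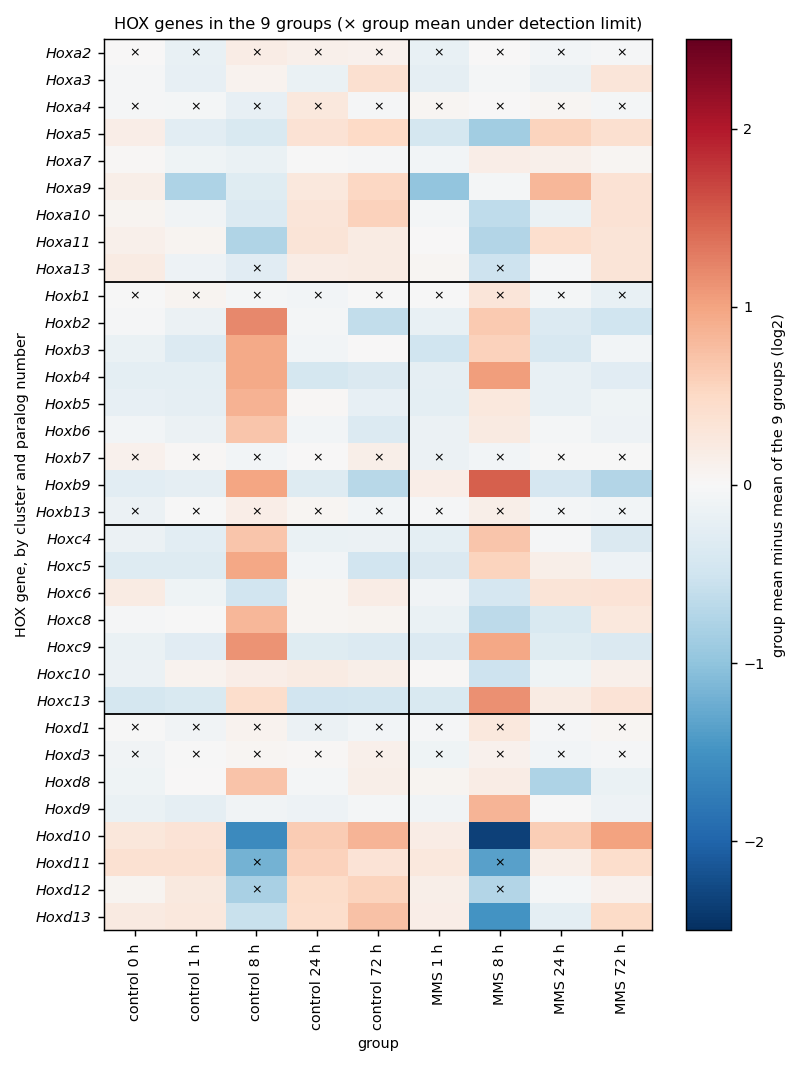
Group means of the 33 HOX genes (rows, by cluster and paralog number) in the 9 groups (columns), coloured by the log2 difference from the gene's mean over the groups, with a cross where the mean is under the detection limit of 4.40. The control 8 h and MMS 8 h columns stand out, with the detected Hoxb genes above and Hoxd10 to Hoxd13 below their means, and Hoxa13, Hoxd11 and Hoxd12 carry crosses in those columns only.

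The 8 h arrays were compared with the others separately in control and MMS cells, which share no array. All Hoxb genes tested had higher signals at 8 h in both, as had Hoxc4, Hoxc5, Hoxc9 and Hoxc13, by the probe sets used. The genes tested with numbers 10 to 13 of Hoxa and Hoxd had lower ones. Of these, Hoxa13, Hoxd11 and Hoxd12 passed the detection limit only in groups other than 8 h. Hoxa5 and Hoxc6 were lower by the probe set used and, in control cells, higher by another. In control cells 8 h gave higher signals than the mean of the other 4 control groups for 12 of the 26 HOX genes tested and lower signals for 10, which is 84.6% where 68.5% of all genes were called, 40.6% higher and 28% lower (limma, Benjamini-Hochberg adjusted p under 0.05). In MMS cells 12 were higher and 11 lower than the mean of the other 3 MMS groups, 88.5% where 79.9% of all genes were called, 47.9% higher and 32% lower. Both calls thus took in most genes on the arrays. The median absolute log2 difference in control cells was 0.88 over the HOX genes and 0.32 over all genes tested, and in MMS cells 0.85 and 0.48. A difference of at least 2-fold was found higher for 7 HOX genes (26.9%) and lower for 3 (11.5%) in control cells, where 4.9% and 5.14% of all genes were called so. These counts use measured values, and Hoxd12, among the 3, is bounded only at a fall of 0.88 on the log2 scale. In MMS cells these were 4 (15.4%) each way, where 7.92% and 9.93% of all genes were. The 4 lower ones include Hoxa5, which was higher by its other probe set. The median of all genes tested was itself 0.09 higher at 8 h in control cells and 0.17 higher in MMS cells.

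By cluster, the 8 h groups had higher signals for all 6 Hoxb genes tested, with medians of 1.19 in control and 0.94 in MMS cells. No Hoxa gene tested was called higher, and 5 of 7 were lower in control cells and 4 of 7 in MMS cells. Hoxc was mixed, with 5 higher and 1 lower of 7 in control cells and 4 higher and 3 lower in MMS cells. In Hoxd, 1 gene was higher and 4 lower of 6 in control cells, and 2 were higher and 4 lower in MMS cells. By position, 11 of the 17 genes numbered 1 to 9 were higher and 3 lower in each comparison. The 3 lower ones include Hoxa5 and Hoxc6, whose direction differed between probe sets. Of the 9 genes numbered 10 to 13, 7 were lower in control cells and 8 in MMS cells, where 28% and 32% of all genes were. The single one called higher in each was Hoxc13. Hoxa13, Hoxd11 and Hoxd12, among the lower ones, entered the test only through groups other than 8 h. Their direction was therefore largely set by the detection limit, and the count cannot serve as a test of position.

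Called higher in both comparisons were Hoxb2, Hoxb3, Hoxb4, Hoxb5, Hoxb6, Hoxb9, Hoxc4, Hoxc5, Hoxc9, Hoxc13 and Hoxd8, 11 genes or 42.3%, where 32.2% of all genes were. Called lower in both were Hoxa5, Hoxa10, Hoxa11, Hoxa13, Hoxc6, Hoxd10, Hoxd11, Hoxd12 and Hoxd13, 9 genes or 34.6%, where 21.8% of all genes were. Of these, Hoxa5 and Hoxc6 differed in direction between probe sets, and Hoxa13, Hoxd11 and Hoxd12 passed the detection limit only in groups other than 8 h. On single arrays, all 8 arrays of 8 h lay above the 27 others for 7 HOX genes, Hoxb2, Hoxb3, Hoxb4, Hoxb9, Hoxc4, Hoxc5 and Hoxc9, where 8.76% of all genes did so. They lay below the others for 6, Hoxa11, Hoxc6, Hoxd10, Hoxd11, Hoxd12 and Hoxd13, where 8.06% of all genes did. Together that was 50.0% of the HOX genes tested and 16.8% of all genes.

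**Figure D2:**
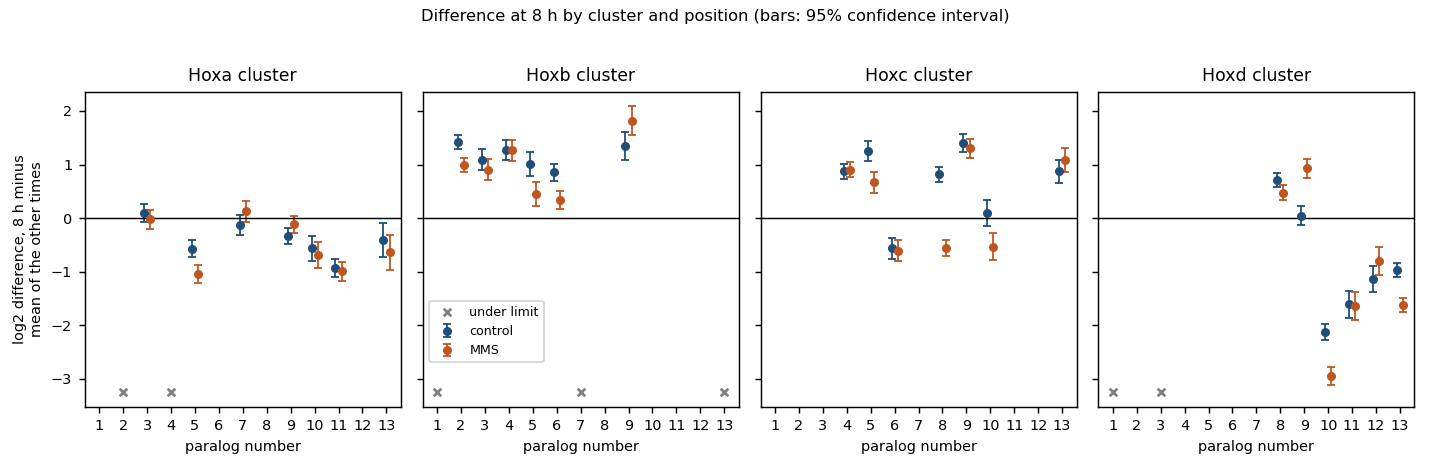
Log2 difference of the 8 h group from the mean of the other times (vertical axis) for each HOX gene tested, by paralog number (horizontal axis) and cluster, in control cells (blue) and MMS cells (orange), with 95% confidence intervals and grey crosses along the bottom, which carry no value, for genes under the detection limit. Every Hoxb gene tested lies above 0, and Hoxd spans 0.93 at Hoxd9 to -2.95 at Hoxd10, both in MMS cells.

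Among the probe sets used, the largest measured fall was that of Hoxd10, which acts with its neighbours in the lumbar spinal cord and the limb. Its log2 signal was 5.96, 5.99, 5.64 and 6.10 on the control 8 h arrays and 5.15, 4.98, 5.24 and 5.32 on the MMS 8 h arrays, and it ran from 7.54 over a median of 8.05 to 8.60 on the other 27. No 8 h array came near the others, and the MMS arrays lay below all control arrays of the same time. The difference was -2.12 ± 0.08 (SE) in control cells, a 4.35-fold lower signal (adjusted p = 1.91e-20), and -2.95 ± 0.08 in MMS cells, a 7.71-fold lower signal (adjusted p = 9.43e-24). Over the 9 group means, the genes whose pattern was most like that of Hoxd10 were Socs4, Ap4e1, Tmlhe, Ift140 and Nr3c1, with Pearson's r of 0.993 to 0.994, points that share the 8 h groups and so rest largely on them.

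Hoxd11, which shapes the forearm with Hoxa11, had signals of 4.64, 4.35, 4.00 and 4.14 in control 8 h and 3.51, 4.01, 4.67 and 4.28 in MMS 8 h, against 5.37, 5.81 and 6.17 as lowest, median and highest of the other 27 arrays. The groups did not overlap, and both 8 h means, 4.28 and 4.12, were under the detection limit, so that only a bound on the fall can be given. With 8 h arrays under the limit set to it, Hoxd11 was at least 2.70-fold lower in control cells and at least 2.45-fold lower in MMS cells (adjusted p of the fit on measured values = 1.48e-12 and 1.46e-12). Hoxd12, a neighbour expressed in the distal limb, read 4.06, 4.44, 4.12 and 4.00 in control 8 h and 4.39, 4.08, 4.17 and 4.30 in MMS 8 h, while the others ran from 4.73 to 5.77 with a median of 5.12. It too lay below every other array, with 8 h means of 4.16 and 4.23 under the limit. By the same bound it was at least 1.84-fold lower in control and at least 1.55-fold lower in MMS cells (adjusted p of the fit = 8.87e-10 and 1.03e-06). Both genes entered the tests only through groups other than 8 h. Their direction was therefore largely set by the detection limit, and these p-values cannot serve as a test of it. The bounds are on the estimates and leave out the spread between arrays.

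Hoxd13, the last gene of its cluster and needed for digits and genitalia, had signals of 8.81, 8.69, 8.82 and 9.07 in control 8 h and 7.87, 7.78, 7.96 and 7.99 in MMS 8 h, and from 9.11 to 10.37 on the others, with a median of 9.70. It stayed far above the limit, lay below all other arrays, and was lowest in MMS 8 h. The differences were -0.97 ± 0.06 and -1.62 ± 0.07 (adjusted p = 3.67e-14 and 2.02e-19). A further probe set of Hoxd13 fell by 2.55 in control cells and by 2.44 in MMS cells, so the size of the difference depends on the probe set while the direction does not. Hoxa11, a forearm and uterus gene, was 0.93 ± 0.08 lower in control cells and 0.99 ± 0.09 lower in MMS cells on the log2 scale (means 7.32 and 7.33 at 8 h). On the antisense RNA annotated beside it, Hoxa11os, the differences were -0.30 and -0.44. Hoxa10, needed in the uterus and lumbar region, was also lower (-0.56 and -0.68). Hoxa13, the distal limb gene, had 8 h means of 4.32 and 4.09 under the limit. Its 8 h arrays overlapped the others (3.66 to 4.61 against 4.26 to 5.32). By the bound used for Hoxd11, its estimated fall was at least 1.25-fold in control and at least 1.21-fold in MMS cells. Its control value (-0.41 as measured) lost its call without control 8 h replicate 1 (-0.37, adjusted p = 0.065) or replicate 3 (-0.39, adjusted p = 0.0503).

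Among the genes that were higher, Hoxb2, which acts in the hindbrain, had signals of 8.37, 8.23, 8.54 and 8.37 in control 8 h and 7.83, 7.66, 7.82 and 7.99 in MMS 8 h, against 6.44, 6.94 and 7.22 as lowest, median and highest of the others. All 8 arrays lay above the rest, the control arrays highest. The differences were 1.42 ± 0.06 and 0.99 ± 0.07 (adjusted p = 5.69e-18 and 3.94e-14), a 2.67-fold and a 1.98-fold higher signal. Hoxc9, which sets thoracic identity in motor neurons, read 7.64, 7.58, 7.72 and 7.70 in control 8 h, 7.49, 7.54, 7.44 and 7.52 in MMS 8 h, and from 5.91 over a median of 6.21 to 6.56 on the others. The 8 h arrays formed a narrow band above all of the rest, and the differences were 1.41 ± 0.08 and 1.30 ± 0.09 (adjusted p = 2.62e-15 and 2.32e-14).

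Hoxb9, a thoracic gene with a role in ribs and the mammary gland, read 6.89, 7.01, 7.13 and 7.66 in control 8 h, 7.39, 7.89, 7.86 and 7.61 in MMS 8 h, and from 5.21 over a median of 5.86 to 6.64 on the others. All 8 arrays lay above the rest, and the differences were 1.82 ± 0.13 in MMS cells and 1.35 ± 0.13 in control cells (adjusted p = 2e-13 and 9.7e-11, limma). Hoxb4, also known for its effect on blood stem cells, read 7.55, 7.31, 7.46 and 7.37 in control 8 h, 7.78, 7.43, 7.55 and 7.29 in MMS 8 h, and 5.77 to 6.55 on the others, with a median of 6.23. Control and MMS arrays of 8 h overlapped each other and none of the rest, and the differences were 1.28 ± 0.09 and 1.27 ± 0.10 (adjusted p = 3.05e-13 and 5.5e-13). Hoxc5, a cervical gene, read 7.54, 7.52, 7.76 and 7.63 in control 8 h, 7.29, 7.16, 7.16 and 7.23 in MMS 8 h, and from 5.93 over a median of 6.45 to 6.91 on the others. No 8 h array overlapped the rest, and its difference was 1.25 ± 0.09 in control cells and 0.67 ± 0.10 in MMS cells (adjusted p = 4.84e-13 and 2.98e-07), and of its other 2 probe sets, 1 read -0.23 in MMS cells.

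The remaining genes called higher in both were Hoxb3 (1.09 in control and 0.90 in MMS cells), a hindbrain and pharyngeal gene, Hoxb5 (1.01 and 0.45), which acts in the neural crest of the gut, Hoxb6 (0.85 and 0.34), Hoxc4 (0.88 and 0.90), Hoxc13 (0.88 and 1.09), a hair and nail gene, and Hoxd8 (0.71 and 0.47). In MMS cells, genes of tissues absent from fibroblasts had a median of 0.525, with 7 of 7 tested called higher. The MMS values of Hoxb5, Hoxb6 and Hoxd8 lay below that median. Both probe sets of Hoxb3, of Hoxb4 and of Hoxd8 were higher. Hoxa5, which acts in lung development, was lower by the probe set used (-0.57 and -1.05) and higher by its other one (0.56 and 0.55), and Hoxc6, a thoracic gene, was lower on 2 probe sets (-0.57 and -0.90 in control cells) and higher on another (0.68). Neither gene has a direction that holds across its probe sets. Hoxa3, a gene of the thymus and parathyroid, and Hoxa7, a thoracic gene, passed the test in neither comparison, with differences of 0.09 and -0.02 for Hoxa3 and of -0.14 and 0.13 for Hoxa7. Hoxc10, a gene of the lumbar region and hindlimb, was called lower in MMS cells (-0.53) and differed by 0.10 in control cells, where it was not called. Hoxd9 was 0.93 higher in MMS cells, and Hoxa9 was 0.34 lower in control cells and not called in MMS cells.

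**Figure D3:**
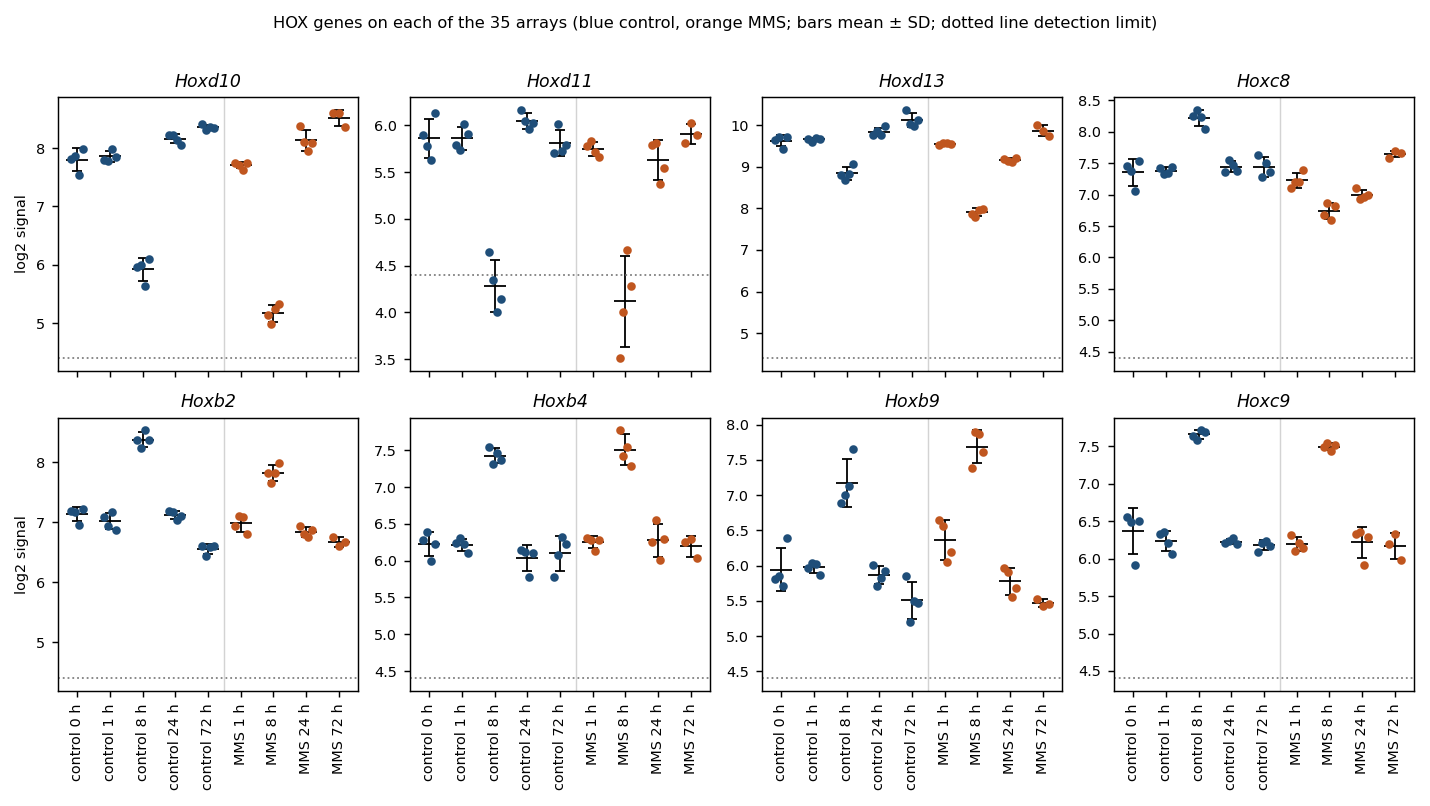
Log2 signal (vertical axis) of 8 HOX genes on each of the 35 arrays, by group (horizontal axis), control in blue and MMS in orange, with mean ± SD bars and the detection limit of 4.40 as a dotted line. Hoxd10, Hoxd11 and Hoxd13 drop and Hoxb2, Hoxb4, Hoxb9 and Hoxc9 rise on all 8 arrays of 8 h, while Hoxc8 is up in control 8 h and down in MMS 8 h.

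At 8 h the effect of MMS itself is the difference between groups collected at the same time. Of the 26 genes, 5 were higher and 11 lower in MMS 8 h than in control 8 h, 61.5% where 53.7% of all genes were called, 28.7% higher and 25% lower. Of the 14 fibroblast markers 11 were lower with MMS at 8 h (median -0.57) and 13 at 24 h (median -1.06), and their part in the HOX values was not tested. The largest effect was that of Hoxc8, a thoracic patterning gene, at 8.26, 8.34, 8.24 and 8.04 in control and 6.67, 6.86, 6.59 and 6.82 in MMS cells. The groups lay far apart, a 2.79-fold lower signal with MMS (log2 difference -1.48 ± 0.09, adjusted p = 7.74e-15), and it was the only HOX gene past 2-fold, where 5.27% of all genes were 2-fold lower. Against the other times Hoxc8 therefore went opposite ways, 0.82 ± 0.07 higher in control 8 h and 0.55 ± 0.07 lower in MMS 8 h (adjusted p = 1.31e-11 and 6.31e-08), the only HOX gene called in opposite directions.

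Hoxd9, a gene of the proximal limb and lumbar region, went the other way, with 6.99, 7.50, 7.22 and 7.46 in control 8 h and 7.94, 8.44, 8.28 and 8.29 in MMS 8 h. The groups did not overlap and differed by 0.95 ± 0.11 (adjusted p = 6.53e-09), while control 8 h differed from the other control groups by 0.05 ± 0.08 (adjusted p = 0.633). Hoxd13 was 0.94 ± 0.08 lower with MMS (adjusted p = 2.25e-11) and Hoxd10 0.75 ± 0.10 lower (adjusted p = 7.32e-08). Hoxc13 was 0.71 higher. Hoxc10 (-0.69), Hoxb5 (-0.59), Hoxb2 (-0.55), Hoxd8 (-0.52), Hoxa5 (-0.50), Hoxb6 (-0.47), Hoxc5 (-0.40) and Hoxb3 (-0.38) were lower, and Hoxb9 (0.52), Hoxa7 (0.33) and Hoxa9 (0.25) higher, the last losing its call without control 8 h replicate 1 (0.19, adjusted p = 0.0894).

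At 1 h no HOX gene passed the test for MMS by limma, with 2 at an unadjusted p under 0.05, where 0.389% of all genes were called. At 24 h, 2 genes were higher and 8 lower, 38.5% where 44.5% of all genes were called, 25% higher and 19.4% lower. Hoxd8 read 7.24, 7.43, 7.43 and 7.34 in control and 6.59, 6.58, 6.82 and 6.57 in MMS cells, with no overlap, and was 0.72 ± 0.08 lower (adjusted p = 1.66e-08). Hoxd13 read 9.76, 9.86, 9.76 and 9.97 in control and 9.18, 9.14, 9.11 and 9.21 in MMS cells, again with no overlap, and was 0.68 ± 0.08 lower (adjusted p = 2.67e-08). Hoxc13 rose, from 5.02, 4.93, 4.82 and 4.76 to 5.82, 5.50, 5.45 and 5.48, by 0.68 ± 0.13 (adjusted p = 8.25e-05).

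Hoxa9, a gene of the lumbar region and limb also known from leukaemia, was the other that was higher at 24 h, by 0.57. The rest were Hoxd12 (-0.51), Hoxa10 (-0.46), Hoxc8 (-0.44), Hoxd11 (-0.42), Hoxb3 (-0.33) and Hoxb2 (-0.29), so that 4 of the 6 Hoxd genes tested were lower. Without MMS 24 h replicate 3 the Hoxd11 value was -0.33 (adjusted p = 0.115), with losses of its call also without MMS 24 h replicate 4 (-0.39, adjusted p = 0.0708) and control 24 h replicates 1 (-0.38, adjusted p = 0.0785) and 2 (-0.42, adjusted p = 0.0512). Hoxb3 lost its call without MMS 24 h replicates 2 (-0.28, adjusted p = 0.0724) and 3 (-0.29, adjusted p = 0.0608) and control 24 h replicate 4 (-0.28, adjusted p = 0.0736).

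At 72 h, 3 genes were called, 11.5% where 20.5% of all genes were, 10.1% higher and 10.4% lower. Hoxc13 read 4.93, 4.98, 4.82 and 4.84 in control and 5.91, 5.71 and 5.51 in MMS cells and was 0.82 ± 0.14 higher (adjusted p = 6.24e-05). It was the only HOX gene higher with MMS at 8, 24 and 72 h. Hoxd8, at 7.82, 7.48, 7.45 and 7.53 in control and 7.27, 7.37 and 7.10 in MMS cells, was 0.33 ± 0.09 lower without overlap (adjusted p = 0.00771). Hoxd13, at 10.37, 10.02, 9.98 and 10.12 in control and 10.00, 9.86 and 9.75 in MMS cells, overlapped between the groups and was 0.25 ± 0.09 lower (adjusted p = 0.036). Without MMS 72 h replicate 3 neither Hoxd8 (-0.25, adjusted p = 0.0855) nor Hoxd13 (-0.19, adjusted p = 0.21) was called, and Hoxd13 also lost its call without control 72 h replicate 1 (-0.17, adjusted p = 0.172) or 4 (-0.25, adjusted p = 0.062) or MMS 72 h replicate 2 (-0.25, adjusted p = 0.0953). With arrays centred on their median, 2 genes were called higher and 1 lower at 72 h, and with a further quantile normalisation 2 each way, in place of 1 higher and 2 lower. The number called was 9 with array weights, 5 with a replicate block or without control 72 h replicate 1, and 1 with only the groups compared in the model.

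The change of the MMS effect from 8 to 24 h was tested as an interaction, and 9 HOX genes passed, 34.6% where 45.6% of all genes did, 23.3% higher and 22.2% lower. The effect was higher at 24 h than at 8 h for Hoxc8 (by 1.04 ± 0.12, adjusted p = 5.27e-08), Hoxd10 (0.72 ± 0.13, adjusted p = 5.38e-05), Hoxa5 (0.69), Hoxc5 (0.61), Hoxb6 (0.49) and Hoxa9 (0.31). It was lower for Hoxd9 (-0.83 ± 0.15, adjusted p = 3.57e-05), Hoxb9 (-0.60) and Hoxd12 (-0.59). Both 8 h means of Hoxd12 were under the detection limit, so the size of its change is not known. Hoxd12 lost its call without control 24 h replicate 4 (-0.49, adjusted p = 0.063) and with a further quantile normalisation (-0.50, adjusted p = 0.0528). Hoxb9 lost it without any one of control 8 h replicates 1 and 2, MMS 8 h replicates 2 and 3, control 24 h replicate 1 and MMS 24 h replicates 3 and 4 (-0.57 to -0.51, adjusted p = 0.0523 to 0.071). Hoxa9 lost it without any one of control 8 h replicates 2 and 4, MMS 8 h replicates 1, 3 and 4, control 24 h replicates 1, 3 and 4 and MMS 24 h replicates 1, 3 and 4 (0.25 to 0.32, adjusted p = 0.0506 to 0.112).

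**Figure D4:**
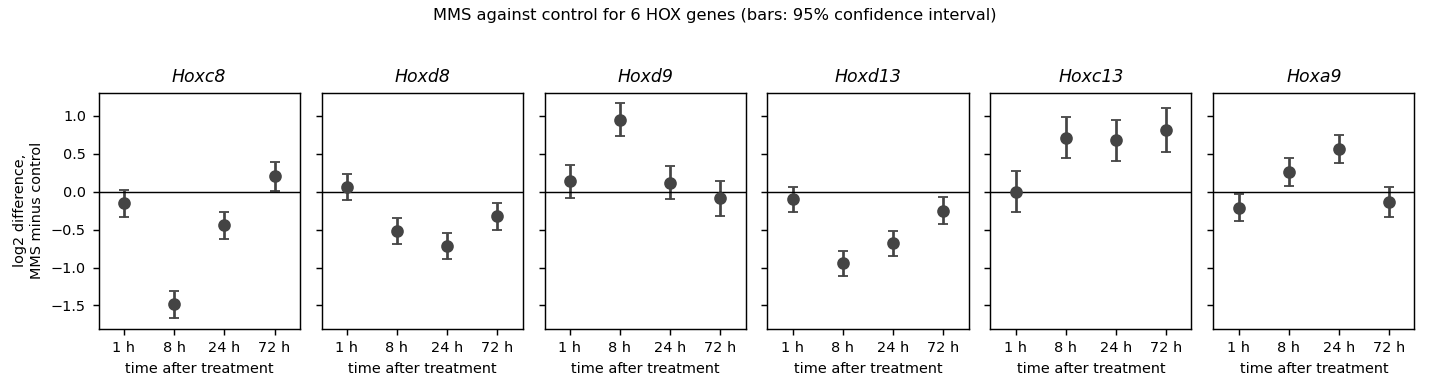
Log2 difference of MMS from control cells (vertical axis) for 6 HOX genes at 1, 8, 24 and 72 h (horizontal axis), with 95% confidence intervals. Hoxc8 has its lowest value, -1.48, at 8 h, Hoxd13 lies below 0 at 8, 24 and 72 h, Hoxd9 is high at 8 h, and Hoxc13 lies between 0.68 and 0.82 at those 3 times.

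In untreated cells away from 8 h, HOX signals moved less. At 1 h after the change of medium, 2 genes were lower than at 0 h, where 11.6% of all genes were called and 4.38% lower. Hoxa9 went from 8.91, 8.77, 8.63 and 8.91 to 7.87, 7.75, 8.05 and 7.91, and the groups did not overlap (-0.91 ± 0.09, adjusted p = 7.79e-09), and it was 8.84, 9.05, 8.93 and 8.89 at 24 h. MMS 1 h arrays read 7.65, 7.72, 7.64 and 7.73. Hoxa5 was the other, 0.43 lower. The count was 7 with array weights, 1 with only the groups compared in the model, and 4 with the mean of all probe sets or without control 0 h replicate 3. At 24 h the single gene called was Hoxd10, 0.35 ± 0.10 higher (adjusted p = 0.0131), where 11.2% of all genes were called and 9.12% higher, and without control 0 h replicate 3 it was 0.27 (adjusted p = 0.0747). That count was 11 with array weights, 0 with only the groups compared in the model and 3 without control 0 h replicate 4.

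At 72 h, 8 genes were higher and 3 lower than at 0 h, 42.3% where 38.1% of all genes were called, 21.8% higher and 16.3% lower. Hoxb2 read 7.18, 7.18, 6.96 and 7.22 at 0 h and 6.61, 6.44, 6.59 and 6.60 at 72 h, and was 0.57 ± 0.08 lower with no overlap (adjusted p = 1.26e-06). Hoxd10 read 7.82, 7.87, 7.54 and 7.99 at 0 h and 8.42, 8.32, 8.35 and 8.35 at 72 h, and was 0.56 ± 0.10 higher with no overlap (adjusted p = 2.45e-05). Hoxa10, Hoxd13 and Hoxd12 were each 0.49 higher, and Hoxa3 (0.42), Hoxa9 (0.37), Hoxa5 (0.34) and Hoxd8 (0.27) were higher by less. With only the groups compared in the model 5 genes were called. Hoxa5, Hoxa9, Hoxb6, Hoxb9, Hoxd8 and Hoxd12 lost their calls there (limma, adjusted p = 0.0554 to 0.157). Without the 4 arrays that carried intestinal transcripts, described below, Hoxa5 (0.25, adjusted p = 0.0581) and Hoxd12 (0.39, adjusted p = 0.0514) lost theirs as well. The genes that were lower all belonged to Hoxb, with Hoxb9 (-0.44) and Hoxb6 (-0.28) beside Hoxb2, and those that were higher all belonged to Hoxa and Hoxd. With the mean of all probe sets, Hoxa3 (0.13, adjusted p = 0.112), Hoxa5 (0.17, adjusted p = 0.105) and Hoxa10 (0.25, adjusted p = 0.0635) lost their calls. Hoxb9 lost its call without control 0 h replicate 4 (-0.29, adjusted p = 0.157) or control 72 h replicates 2 (-0.34, adjusted p = 0.122), 3 (-0.43, adjusted p = 0.0552) or 4 (-0.42, adjusted p = 0.0626). Hoxb6 lost its call without control 0 h replicates 2 (-0.26, adjusted p = 0.0527) or 4 (-0.16, adjusted p = 0.164) or control 72 h replicates 2 (-0.25, adjusted p = 0.069) or 4 (-0.26, adjusted p = 0.0637), and Hoxd8 without control 0 h replicate 3 (0.19, adjusted p = 0.0659) or control 72 h replicate 1 (0.19, adjusted p = 0.0776).

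Spread within groups was ordinary for most HOX genes, with a median SD of 0.16 over those tested and 0.15 over all genes tested. The widest was Hoxa13, with a pooled SD of 0.28, wider than in 93.2% of all genes tested. Its signals were 4.32, 4.93, 4.70 and 5.32 in control 0 h and 3.82, 3.66, 4.61 and 4.28 in MMS 8 h, on both sides of the limit in each case. Hoxb9 and Hoxd11 followed, each with an SD of 0.23.

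HOX proteins bind DNA with TALE cofactors such as PBX and MEIS, and their clusters are kept silent by Polycomb and active by Trithorax complexes, after being opened in the embryo by retinoic acid and caudal factors. Of the 10 TALE cofactors tested, 5 were higher and 4 lower at 8 h in control cells (median 0.17) and 4 higher and 5 lower in MMS cells (median -0.22). Pknox2 was lower in both (-1.73 and -1.37), as were Meis3 (-1.23 and -0.95) and Pbxip1 (-0.70 and -0.93), while Meis1 was 0.88 higher in control and 0.40 lower in MMS cells. Between treatments at 8 h, Meis2 was 1.81 and Meis1 1.48 lower on the log2 scale with MMS. Of 40 Polycomb and Trithorax genes, 15 were higher and 16 lower at 8 h in control cells and 18 higher and 15 lower in MMS cells. Dpy30, a subunit of Trithorax-type methyltransferases, was higher (1.32 and 0.96), and Kmt2a, the HOX-activating methyltransferase, was lower (-0.98 and -0.79).

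Of 20 genes of retinoic acid and caudal regulation, 5 were higher and 7 lower at 8 h in control cells and 9 higher and 7 lower in MMS cells. Crabp1 and Crabp2, which bind retinoic acid in the cell, went opposite ways. Crabp1 averaged 11.75 in control 8 h against 8.42 in the other control groups and was 3.33 ± 0.09 higher, and 4.04 ± 0.09 higher in MMS cells, while Crabp2 was 2.07 and 2.55 lower on the log2 scale. Dhrs3, which reduces retinal, was also lower (-1.55 and -2.39).

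Of 36 other transcription factors with positional expression, 14 were higher and 14 lower at 8 h in control cells and 15 each way in MMS cells. Tbx4, a limb and lung factor, was lower in both (-1.69 ± 0.09 and -1.39 ± 0.09), and higher in both were Emx2 (2.13 and 1.80), Irx5 (1.70 and 1.77) and Dlx2 (1.64 and 1.02). Prrx1 and Prrx2, limb mesenchyme factors, were lower in MMS 8 h (-2.63 and -2.61) and differed by -0.02, which was not called, and by -0.22 in control 8 h. Of the 14 genes tested next to the clusters, 7 were higher and 4 lower in control cells and 6 each way in MMS cells. Evx2, which lies beside Hoxd13, was higher (0.37 and 0.85), with low means of 4.90 in control 8 h and 5.36 in MMS 8 h. Genes of tissues absent from fibroblasts had medians of 0.26 and 0.525 in the same comparisons, with 3 and 7 of 7 called higher. Whether the Evx2 values go beyond that shift was not tested. Of 3 cluster transcripts tested, Hoxd3os1 was higher (1.31 and 0.44), Hoxa11os lower, and Hoxb5os was called in neither comparison. These lists were read against the 68.5% and 79.9% of all genes called.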

How the data were processed

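Expression was measured on 35 Affymetrix arrays of primary MEFs, and the authors deposited log2 values of 45101 probe sets normalised by RMA (version and annotation not given in the sources used here). MMS 72 h was represented by 3 arrays, with no replicate 4 among the arrays used here. By the platform annotation 34958 probe sets name a single gene, 932 name several and 9211 name none, and the first kind was used. Each of the 18194 genes was read from its probe set with the highest mean. Depth has no meaning for arrays, and array medians ran from 4.98 to 5.09. Genes whose mean stayed under log2 4.40 (percentile 40 over every value) in each group were left out, and 14135 entered the tests.

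Groups came from the labels. With R 4.3.3 and its package limma 3.58.1, 1 linear model of group means was fitted to all arrays (26 residual degrees of freedom), with empirical Bayes moderation and two-sided p-values adjusted by Benjamini-Hochberg over all genes tested in each of 10 contrasts. The threshold for a call was an adjusted p of 0.05. The program the methods name for the time course was not run. The 8 h groups were set against the mean of the other control or MMS groups. The HOX genes, the gene lists and the tests were chosen with earlier results of these data known. Values on every array are given for the 8 genes with the largest difference called in both 8 h comparisons, up to 3 per MMS time, the 3 with the widest spread and 3 of the control time course. From each other list, genes named are among the 4 with the largest difference called in a comparison, except that Hoxb5os was named after its values were seen. Alternatives were other scaling, other detection limits, other probe set rules, array weights, robust moderation, a replicate block, fewer groups in the model and leaving out arrays. Promoter stretches and motif matches came from RefSeq on GRCm38.p6, read in Python 3.11.15 with pandas 2.3.3.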

Additional observations from a re-analysis of the deposited data

Results flagged for a closer look

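Among the 15 HOX genes whose values are given on every array, 9 of 120 groups of 4 arrays held an array far from the other 3, where chance gives about 1 group in 20. In control 0 h, replicate 3 was low for Hoxc9 (5.91 against 6.49 to 6.56) and for Hoxb2 (6.96 against 7.18 to 7.22). Replicate 3 was also low for Hoxb4 in control 24 h (5.77 against 6.10 to 6.14) and in MMS 1 h (6.13 against 6.28 to 6.31) and for Hoxc9 in MMS 24 h (5.91 against 6.29 to 6.35), and it was high for Hoxd8 in MMS 24 h (6.82 against 6.57 to 6.59). Of these, the arrays of control 0 h, MMS 1 h and MMS 24 h carried intestinal transcripts, whose 24 markers reached a mean of 10.72, 7.18 and 8.77, and their part in these values was not tested. The others were Hoxa9 in MMS 8 h replicate 1 (8.52 against 8.65 to 8.66), Hoxb2 in control 72 h replicate 2 (6.44 against 6.59 to 6.61) and Hoxc13 in MMS 24 h replicate 1 (5.82 against 5.45 to 5.50).

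The MMS effect differed between 8 and 24 h for 9 HOX genes by the test of the difference itself in limma, 34.6% of those tested where 45.6% of all genes did. The effect at 24 h minus that at 8 h was 1.04 for Hoxc8, 0.72 for Hoxd10, 0.69 for Hoxa5, 0.61 for Hoxc5, 0.49 for Hoxb6 and 0.31 for Hoxa9, and it was -0.83 for Hoxd9, -0.60 for Hoxb9 and -0.59 for Hoxd12, whose 8 h means were under the detection limit. The call of Hoxa9 ended with a replicate block and without any one of 11 single arrays, and that of Hoxb9 without any one of 7. The call of Hoxd12 ended without 1 single array and with a further quantile normalisation.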

How the results depend on the processing

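Of 2495 values of the 97 HOX calls under the alternatives, 2412 kept their direction and their side of the threshold, 83 lost the call and 0 changed direction. The counts called at 8 h, in both comparisons with the other times and between treatments, stayed within 1.5 times of 22, 23 and 16 under every alternative run. With array weights the number called was 1 for MMS at 1 h (0 without weights), 9 for MMS at 72 h (3), 7 for control 1 h (2) and 11 for control 24 h (1). With only the groups compared in the model it was 1 for MMS at 72 h, 1 for control 1 h, 0 for control 24 h and 5 for control 72 h (11). The mean of all probe sets and leaving out the 4 arrays with intestinal transcripts each gave 4 for control 1 h. Those 4 arrays were replicate 3 of control 0 h, MMS 1 h, MMS 24 h and MMS 72 h. Without them 7 calls were lost, among them Hoxd11 with MMS at 24 h (-0.33) and Hoxd13 with MMS at 72 h (-0.19). Hoxd10 in control 24 h (0.27) and Hoxa5 (0.25) and Hoxd12 (0.39) in control 72 h were lost too. So were the interactions of Hoxa9 (0.30) and Hoxb9 (-0.53). Leaving out single arrays gave 1 to 5 for MMS at 72 h (1 without MMS 72 h replicate 3, 5 without control 72 h replicate 1), up to 4 for control 1 h (without control 0 h replicate 3) and up to 3 for control 24 h (without control 0 h replicate 4). With the replicate number as a block 5 genes were called for MMS at 72 h. Same-numbered arrays did not deviate together throughout, with correlations of 0.09 to 0.31 at 1 h, -0.04 to 0.11 at 8 h, -0.26 to 0.16 at 24 h and 0.02 to 0.18 at 72 h, so the numbers were not taken as pairs, and 3 of 4, 3 of 4, 1 of 4 and 1 of 3 MMS arrays correlated best with their own number. The block cost 1 other call, the interaction of Hoxa9, which was also lost under other scaling (0.19 with centring). The mean of all probe sets ended 7 calls. These were Hoxa5 in control 8 h (-0.0046), Hoxa10 with MMS at 24 h (-0.12) and Hoxa9 with MMS at 8 h (0.08). The others were Hoxd13 with MMS at 72 h (-0.19) and, in control 72 h against 0 h, Hoxa3 (0.13), Hoxa5 (0.17) and Hoxa10 (0.25). Against the 1 h and 24 h groups only, Hoxa9 (-0.04) and Hoxa13 (-0.32) were no longer called in control 8 h. A further quantile normalisation ended 4 calls, Hoxb5 in MMS 8 h (0.19), Hoxb9 in control 72 h (-0.40) and the interactions of Hoxa9 (0.25) and Hoxd12 (-0.50). A probe set rule added after seeing the data, which avoids sets that may match several genes, cost no call. The cause of these losses was not tested.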
